A study of Mus musculus with 16 samples.

Results

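The genes described here encode potassium channel subunits, measured in mouse dorsal root ganglia, the clusters of sensory neuron cell bodies beside the spinal cord. A gene was included when its symbol in the deposited files begins with Kcn followed by letters and a number, except for the Kcnk genes of the two-pore channels. That rule took 78 of 53379 gene entries, of which 63 encode pore subunits and 15 encode accessory subunits. All 78 are protein-coding genes in the GENCODE M21 annotation.

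All mice were naive animals of 8 to 12 weeks on a C57BL/6J background that carried Nav1.8Cre and Rosa26fsTRAP. The Scn10a promoter drove Cre; Scn10a encodes Nav1.8, a sodium channel typical of pain-sensing neurons (nociceptors). Cre in turn switched on an EGFP-tagged ribosomal protein L10a. There were 4 female and 4 male pools of 3 mice each. Each pool gave an IN library from total RNA of whole ganglia and an IP library from RNA that came down with anti-GFP antibodies on tagged ribosomes, so the 16 libraries form 4 groups of 4 (female IN, female IP, male IN and male IP). Both alleles are present in every group, the tag follows the Scn10a promoter rather than a defined cell type, and a pull-down from mice without the tag was not analysed here.

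Potassium channels let potassium leave or enter a cell and so set its resting potential, shape the falling phase of its action potentials and limit how often it fires. A pore is built from subunits around a selectivity filter, and the families differ in what opens them: voltage in the Kv families, calcium in the BK and SK families, sodium in the Slack family, and lipids, G proteins or metabolic state in the inward rectifiers. Accessory subunits bind the pores and alter their gating or their delivery to the membrane. In sensory neurons, A-type currents of Kv1 and Kv4 channels and the M current of Kv7 channels are known brakes on excitability.

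The filter is the part of the protein that all pore families share, so its coding sequence is shown for 4 gene pairs that moved in opposite directions between IN and IP, followed by 3 other genes that rose, by 0.92 to 1.01 on the log2 scale (Kcnd1, Kcnv1 and Kcnt1). Each line gives 45 coding bases, 5′ to 3′, from GENCODE M21 (GRCm38), and the capitals mark the 3 codons for glycine, an aromatic residue and glycine at the centre of the filter.
Kcna1: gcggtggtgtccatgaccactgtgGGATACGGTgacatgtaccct
Kcna4: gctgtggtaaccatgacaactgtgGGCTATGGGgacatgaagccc
Kcnc1: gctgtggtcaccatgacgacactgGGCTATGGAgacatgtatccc
Kcnc4: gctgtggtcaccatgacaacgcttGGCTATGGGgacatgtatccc
Kcnh2: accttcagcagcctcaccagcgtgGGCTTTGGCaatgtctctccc
Kcnh6: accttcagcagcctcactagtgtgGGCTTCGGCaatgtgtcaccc
Kcnn1: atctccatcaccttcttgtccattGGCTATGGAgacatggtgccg
Kcnn4: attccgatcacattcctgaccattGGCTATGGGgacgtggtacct
Kcnd1: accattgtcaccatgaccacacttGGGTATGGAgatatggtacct
Kcnv1: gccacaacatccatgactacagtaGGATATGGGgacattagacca
Kcnt1: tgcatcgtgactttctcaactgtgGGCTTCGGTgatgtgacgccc

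The search looked in each translated coding sequence for threonine or serine, then valine, isoleucine, threonine or leucine, then glycine, tyrosine or phenylalanine, and glycine. It matched in all 63 pore genes and in 0 of the 15 accessory genes. Kcng2 and Kcnn2 matched but their sequences are not shown. Among the other 61 pore genes the middle codon was for tyrosine in 48 and for phenylalanine in 13, the latter being all 8 Kcnh genes, Kcnj8, Kcnj11, Kcnt1, Kcnt2 and Kcnu1. The 9 capital bases were spelled in 28 different ways. Over 45 bases Kcnc1 and Kcnc4 were 91.1% identical, Kcnh2 and Kcnh6 88.9%, and Kcna1 and Kcna4, like Kcnn1 and Kcnn4, 77.8%. Both kinds of filter occurred on both sides of the IP against IN comparison described below: of the genes tested, 6 of 10 with phenylalanine and 16 of 36 with tyrosine were higher in IP, and 4 and 16 were lower. Over all genes tested, 40.5% were higher and 38.9% lower, and no test compared the kinds of filter.

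The values below are scaled TPM, that is, the deposited transcript abundances (TPM, a unit corrected for gene length and library size) divided by one factor per library so that the median gene is level between libraries. "Higher" and "lower" therefore mean relative to the median gene. The fractions were described with marker genes, whose lists were chosen with earlier results of these data known. The nociceptor list includes Scn10a, whose promoter drove Cre, so these markers are no independent check of the pull-down. In IP, 8 of 8 nociceptor markers were higher (their sum was 1224 to 1421 in IN and 3023 to 4473 in IP) and 6 of 7 markers of large-diameter neurons were lower (466 to 569 against 190 to 297). All 6 satellite glia markers were lower (922 to 1233 against 124 to 279), as were all tested markers of Schwann cells, endothelial and mural cells, fibroblasts, macrophages and skeletal muscle, although no marker of these lists was at 0 in all IP libraries. Of each library's TPM, 9.59% to 13.3% (IN) or 44.9% to 79.5% (IP) belonged to protein-coding genes of the nucleus. Among IP libraries, female pool 2 stood apart with that lowest share and with the highest sum of every non-neuronal marker list. Sequencing depth is unknown, because TPM does not keep it. In such bulk RNA, fewer cells of a type and less RNA per cell cannot be told apart.

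A gene was tested when its mean deposited TPM reached 1 in IN or in IP, which 59 of the 78 channel genes did. Between IP and IN, 32 of the 59 were higher, 22 were lower and 5 passed no threshold (limma on log2(scaled TPM + 1) with the pool as a block, Benjamini-Hochberg adjusted p below 0.05). Over all 16099 genes tested the share past the threshold was 79.4%, with 40.5% higher and 38.9% lower. The 54 of 59 called are a larger part than that background, though no test compared them, and the channel genes' median log2 change was 0.26 against 0.02 for all genes. With the deposited TPM left unscaled, the genes shift up by a median log2 of 1.84, and the same split became 55 higher and 2 lower. Relative to that median gene, 28 of the 32 kept their sign, the exceptions being the low genes Kcna5, Kcng1, Kcnj6 and Kcns2, and 21 of the 22 did, the exception being Kcns3. Without female pool 2 the counts were 31 and 22.

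Of the 32 higher genes, 30 were higher in IP in 8 of 8 pools, and of the 22 lower genes, 21 were lower in 8 of 8. All 54 had a mean change of the called sign in both sexes. These genes were called from the same 8 pools, so agreement between pools follows largely from the call and is no separate support. No share of such agreement over all genes is given here. The 8 IN and 8 IP libraries did not overlap at all for 42 channel genes (23 higher and 19 lower), and the same held for 48.4% of all tested genes. A log2 rise of at least 1 was seen in 7 of the 59 genes, against 3.16% of all tested genes, and a fall of at least 1 in 9, against 13.1%. Pore genes were divided evenly, with 24 higher and 20 lower of 48 tested, whereas 8 of the 11 accessory genes tested were higher and 2 were lower. The summed level of the 78 genes was 1141 to 1207 scaled TPM in IN and 1434 to 1618 in IP, which was 0.458% to 0.482% and 0.472% to 0.540% of the nuclear protein-coding TPM.

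**Figure D1:**
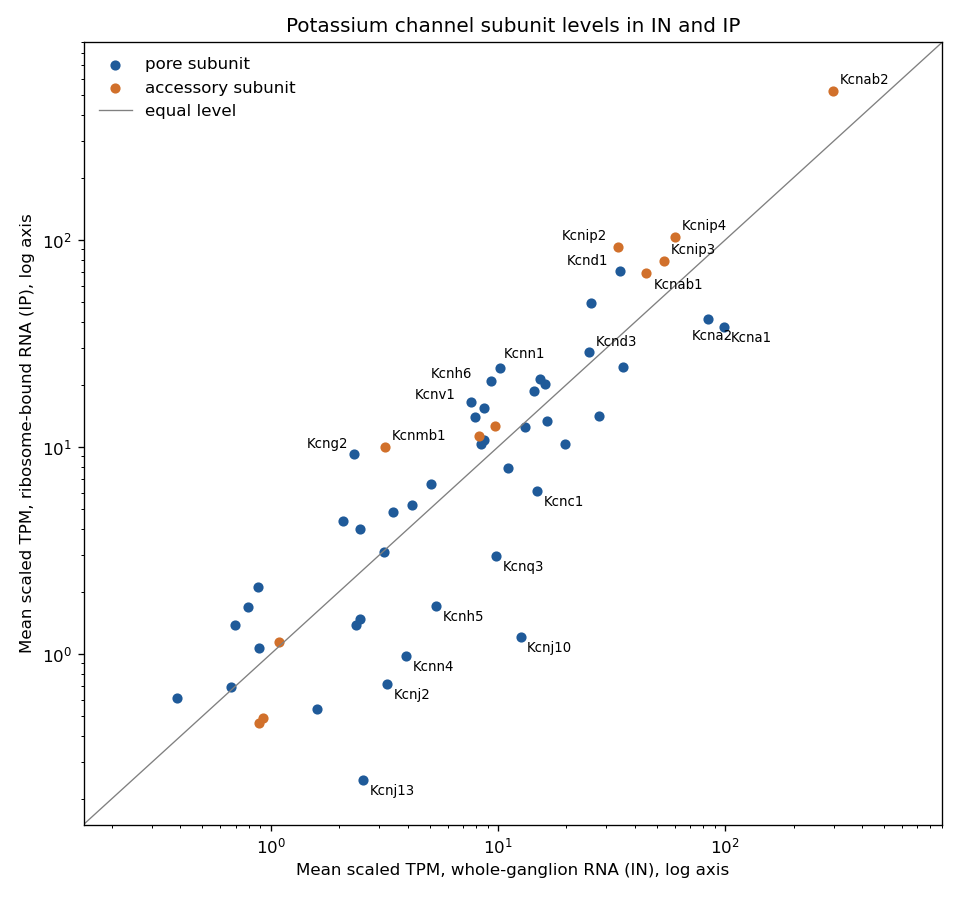
Mean scaled TPM of 55 of the 59 tested channel genes in IN (horizontal log axis) and IP (vertical log axis), 8 libraries each, with pore genes in blue, accessory genes in orange and a line at equal level. The accessory genes Kcnab2, Kcnip4, Kcnip2, Kcnip3 and Kcnab1 lie above the line at the upper right, and the Kv1 genes Kcna1 and Kcna2 lie below it (relative to the median gene; both reverse when the TPM are not scaled).

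**Figure D2:**
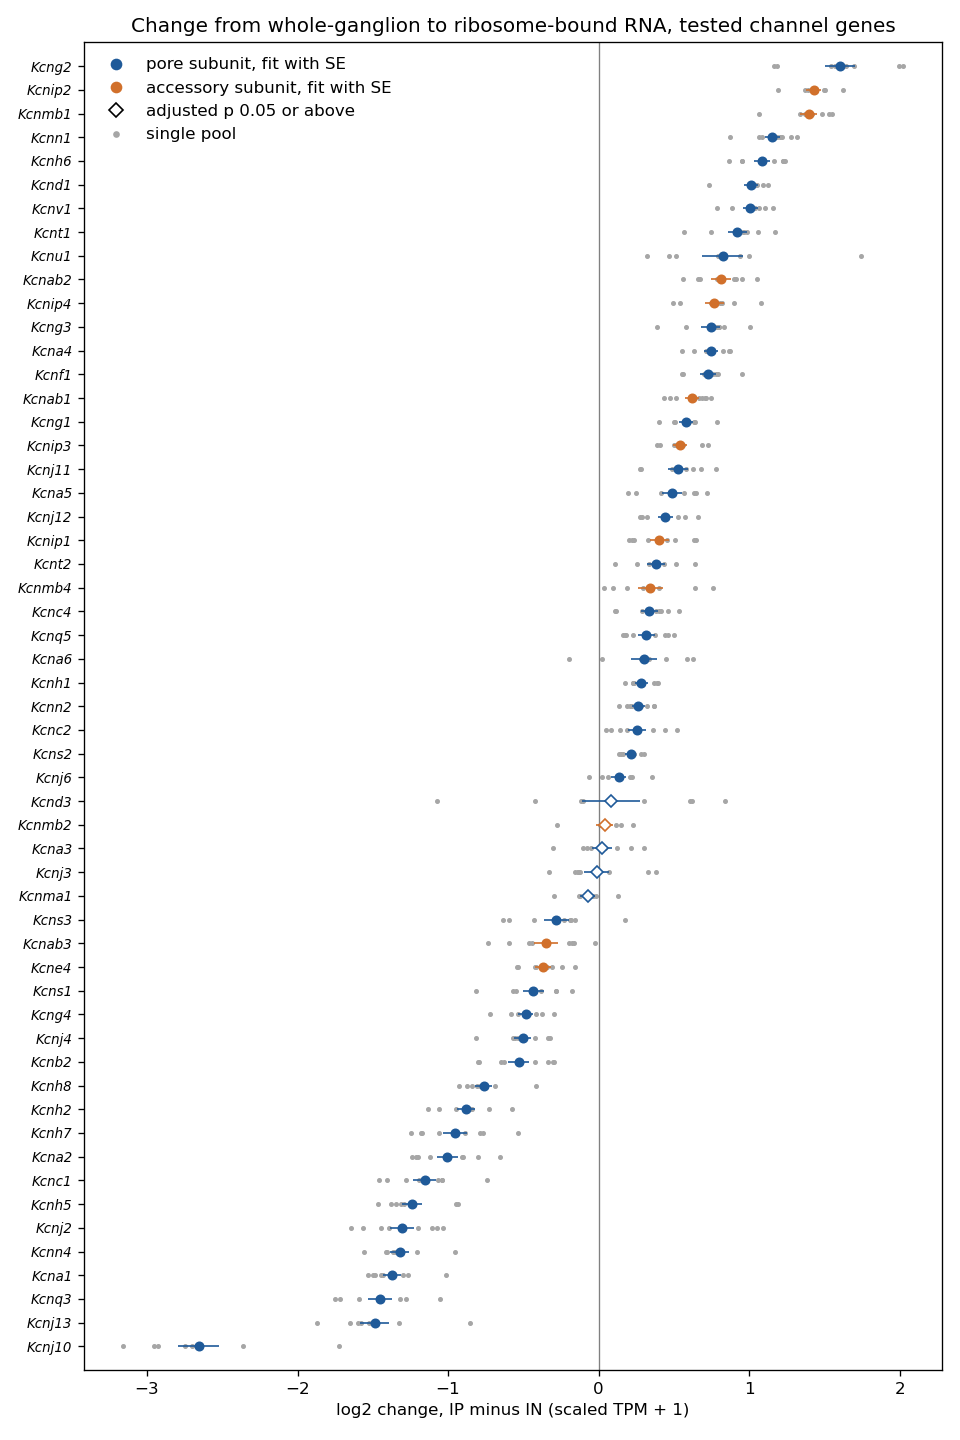
Log2 change from IN to IP on the scaled TPM + 1 scale for 55 of the 59 tested genes, ordered by size, with the fitted value and its standard error, the 8 single pools in grey, and open diamonds for the 5 genes past no threshold. Changes run from -2.66 (Kcnj10) to 1.60 (Kcng2), relative to the median gene; 20 of all 22 genes called lower turn positive when the deposited TPM are left unscaled.

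The Kv1 (Shaker) genes encode low-threshold delayed rectifier and A-type pores. Of 6 tested, Kcna4, Kcna5 and Kcna6 were higher in IP, Kcna1 and Kcna2 were lower (both positive, at 0.88 and 1.25, with unscaled TPM), and Kcna3 passed no threshold. Kcna1 (Kv1.1, ENSMUSG00000047976.4, chr6:126640397-126646384, minus strand), a brake on firing in large-diameter axons, was the second most abundant channel gene in IN. It ran from 91.4 to 105 scaled TPM in IN (median 98.4) and from 33.9 to 44.8 in IP (median 36.8). No IP library reached the lowest IN library, and the fall was 1.37 ± 0.06 on the log2 scale (± SE, limma adjusted p = 4.4e-08, lower in 8 of 8 pools). Without female pool 2, which had the highest IP value, the change was -1.43.

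Kcna2 (Kv1.2, ENSMUSG00000040724.5, chr3:107101146-107115005, plus strand) encodes the usual partner of Kv1.1 beside nodes of Ranvier. Its libraries ran from 74.6 to 95.4 in IN (median 83.7) and from 35.2 to 50.7 in IP (median 40.5). The groups did not overlap, with a log2 change of -1.0 ± 0.07 (limma adjusted p = 4.8e-07, lower in 8 of 8 pools). Kcna4 (Kv1.4, ENSMUSG00000042604.5, chr2:107290639-107298502, plus strand) encodes the fast-inactivating member of the family and went the other way. It was 7.20 to 8.62 in IN (median 8.02) and 12.6 to 14.9 in IP (median 14.1). The change was 0.75 ± 0.05 (limma adjusted p = 1.8e-07, higher in 8 of 8 pools), without overlap of the groups.

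Levels of 2 genes within a library do not depend on the scaling. The ratio of Kcna4 to Kcna1 was 0.0802 ± 0.0052 in IN and 0.374 ± 0.0455 in IP (SD, n = 8 each), with ranges of 0.0743 to 0.0903 and 0.281 to 0.427. The ratio of Kcna1 to Kcna2 moved much less, from 1.18 ± 0.0945 to 0.914 ± 0.0694. In the filter lines, Kcna1 is shown at coding bases 1096 to 1140 of transcript Kcna1-201 and Kcna4 at bases 1555 to 1599 of Kcna4-201. Of the 7 markers of large-diameter neurons counted above, 6 fell in IP beside Kcna1 and Kcna2. The other, Cntnap2, did not pass (0.06 ± 0.11, limma adjusted p = 0.64). The part of these neurons in the Kcna1 and Kcna2 changes was not tested.

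Genes of this family lie side by side, yet neighbours differed in direction. On chromosome 6, within one minus-strand row, Kcna5 (chr6:126532551-126535412) rose by 0.49 ± 0.07, Kcna1 fell, and Kcna6 (chr6:126708329-126740674) rose by 0.30 ± 0.09 in 7 of 8 pools (limma adjusted p = 5.8e-05 for Kcna5 and 0.0090 for Kcna6). Kcna5 was low throughout, at a mean of 0.698 in IN and 1.38 in IP, and its value relative to the median gene was -0.21 with unscaled TPM. It reached the 1 TPM needed for testing in IP alone. Kcna6 is uncertain, because 39.6% of its exonic bases lie under an annotated gene on the other strand and no source here tells whether the counting used strand. On chromosome 3, Kcna3 (0.669 ± 0.164 in IN and 0.689 ± 0.128 in IP, SD, n = 8) did not pass (limma adjusted p = 0.80) but was called higher with quantile normalization (0.25), Kcna2 fell, and Kcna10 was too low to be tested.

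The beta subunits of Kv1 channels are cytoplasmic proteins that bind the pore and can speed its inactivation. Kcnab2 (ENSMUSG00000028931.11, chr4:152390742-152477871, minus strand) was the most abundant channel gene in both fractions. It ran from 269 to 314 scaled TPM in IN (median 300.1) and from 464 to 625 in IP (median 516). The groups did not overlap and the rise was 0.81 ± 0.07 on the log2 scale (limma adjusted p = 1.2e-06, higher in 8 of 8 pools). Kcnab1 also rose, by 0.62 ± 0.05, from a mean of 44.7 to 69.5. Kcnab3, the scarce member, fell by 0.35 ± 0.08 from 0.891 to 0.464 (adjusted p = 7.8e-07 for Kcnab1 and 0.0023 for Kcnab3, limma), and it turned to 0.52 with unscaled TPM. Within libraries the ratio of Kcnab2 to Kcna1 was 3.01 ± 0.215 in IN and 14.0 ± 1.53 in IP (SD, n = 8 each), whereas the pore gene Kcna4, described above, rose beside Kcnab2.

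The Kv4 (Shal) genes encode subthreshold A-type pores. Kcnd1 (Kv4.1, ENSMUSG00000009731.4, chrX:7822289-7838280, plus strand) was 32.6 to 36.1 scaled TPM in IN (median 34.4) and 55.4 to 77.6 in IP (median 71.5). All IP libraries lay above all IN libraries, and the gene rose by 1.01 ± 0.05 (limma adjusted p = 4.7e-08, higher in 8 of 8 pools). Its filter line is coding bases 1096 to 1140 of Kcnd1-201.

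Kcnd3 (Kv4.3, chr3:105452330-105674002, plus strand) behaved unlike the rest. Its IN libraries were close together at 23.3 to 27.8, but its IP libraries ran from 12.0 to 42.5. The IP values were 20.5, 38.5, 32.3 and 21.9 in female pools 1 to 4 and 42.5, 12.0, 23.8 and 37.3 in male pools 1 to 4. High and low IP values thus occurred in both sexes, 4 pools were higher than their IN library and 4 were lower, and the change of 0.08 ± 0.19 did not pass (limma adjusted p = 0.70). Its standard error was the largest among the channel genes. Kcnd2 (Kv4.2) was too low to be tested, with IN libraries between 0.776 and 1.42 and IP libraries between 0.142 and 0.282. The share of pore subunit RNA held by the 3 Kv4 genes rose from 9.13% ± 0.261 to 16% ± 1.33 (SD, n = 8 each; no test).

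KChIP proteins are calcium-binding subunits that carry Kv4 pores to the membrane and slow their inactivation. All 4 KChIP genes were higher in IP, against 40.5% of all tested genes. The 4 did not overlap between fractions, which also held for 48.4% of all tested genes. Kcnip2 (ENSMUSG00000025221.15, chr19:45791839-45816061, minus strand) ran from 26.6 to 41.5 in IN (median 34.4) and from 74.0 to 109 in IP (median 92.5), a rise of 1.43 ± 0.05 (limma adjusted p = 4.4e-08, 8 of 8 pools). Kcnip4 (ENSMUSG00000029088.16, chr5:48389502-49524907, minus strand) ran from 55.3 to 63.7 in IN (median 60.3) and from 87.3 to 125 in IP (median 105), a rise of 0.77 ± 0.06 (limma adjusted p = 1.4e-06, 8 of 8 pools). Kcnip3 (ENSMUSG00000079056.12, chr2:127456498-127522094, minus strand), also known as the transcription factor DREAM, ran from 50.0 to 57.6 in IN (median 54.4) and from 71.8 to 85.6 in IP (median 79.7).

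Kcnip3 rose by 0.54 ± 0.05 and Kcnip1 by 0.40 ± 0.06 (limma adjusted p = 1.7e-06 and 0.00017), the latter from a mean of 8.29 to 11.4. The order within the family changed: Kcnip2 was below Kcnip3 in IN, at a ratio of 0.629 ± 0.0934, and on average above it in IP, at 1.18 ± 0.18 (SD, n = 8 each, IP range 0.893 to 1.45). Dpp6 and Dpp10, which encode further Kv4-binding proteins, rose too, Dpp6 from 69.6 ± 7.57 to 153 ± 17.6 (log2 1.12 ± 0.04, limma adjusted p = 4.4e-08) and Dpp10 by 0.75 ± 0.08 (limma adjusted p = 8.2e-06).

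**Figure D3:**
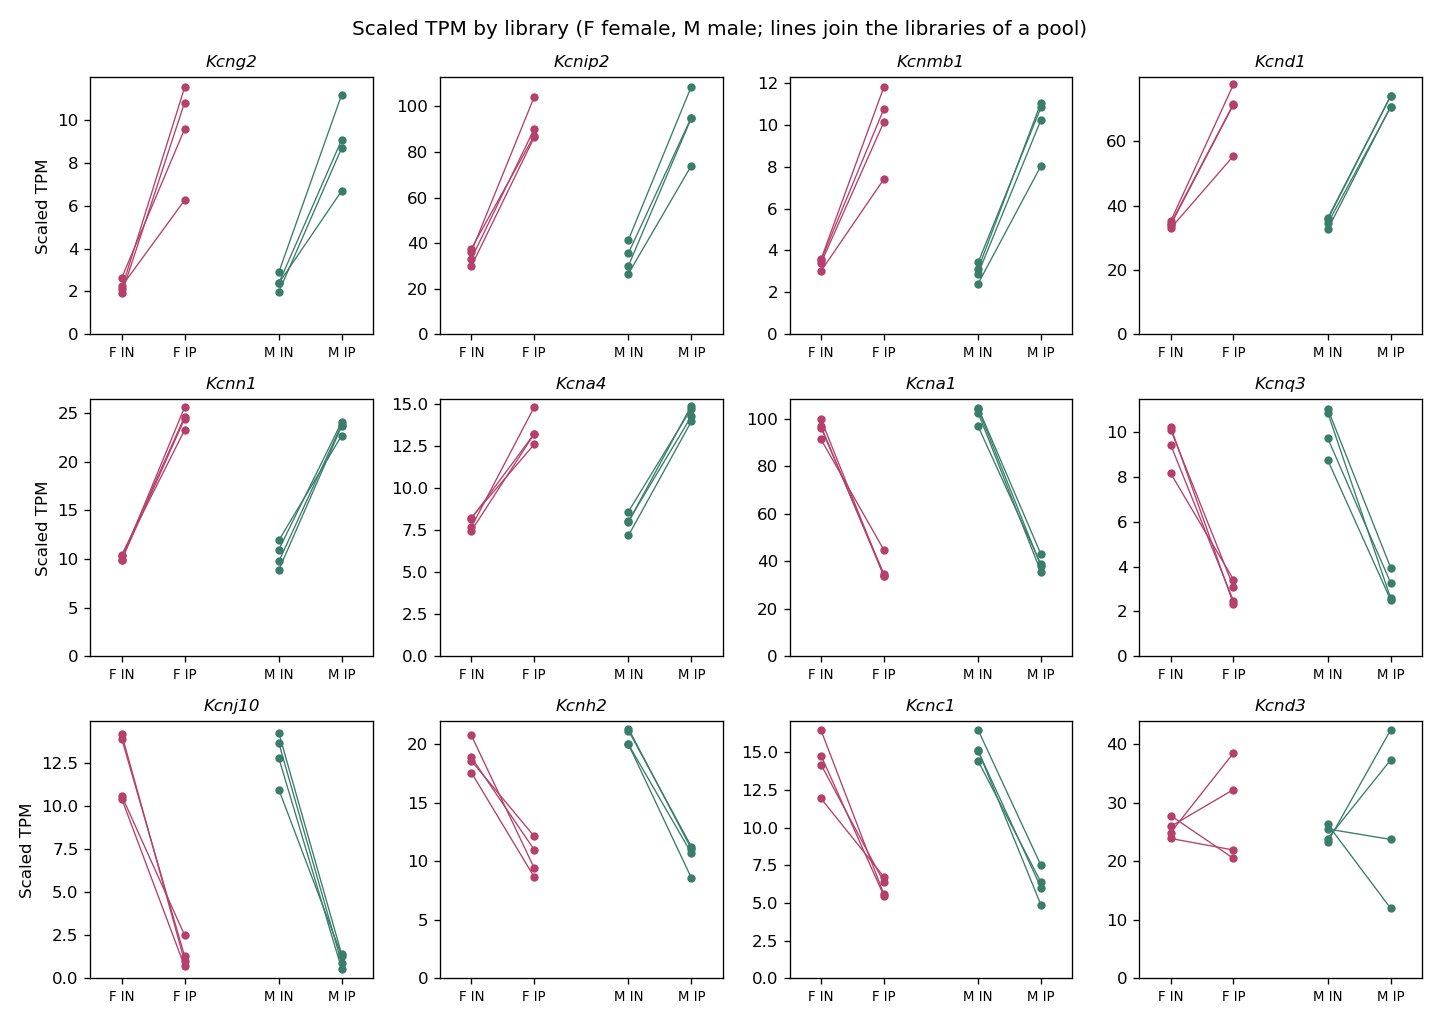
Scaled TPM of 12 channel genes in each library, with a line joining both libraries of each pool, female pools in red and male pools in green, and each vertical axis starting at 0. Kcng2, Kcnip2, Kcnmb1, Kcnd1, Kcnn1 and Kcna4 are higher in every IP library and Kcna1, Kcnq3, Kcnj10, Kcnh2 and Kcnc1 lower (relative to the median gene; of these 5 only Kcnj10 stays negative with unscaled TPM), whereas Kcnd3 spreads from 12.0 to 42.5 in IP.

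Kcnb2 (Kv2.2, chr1:15287254-15723750, plus strand), a delayed rectifier pore gene, fell by 0.53 ± 0.07 from 35.4 ± 2.23 to 24.3 ± 3.02 (SD, n = 8; limma adjusted p = 4.8e-05), and was 1.68 with unscaled TPM.

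The Kcng, Kcnf, Kcnv and Kcns genes encode the silent Kv subunits, which form no channel alone but join Kv2 pores and change their gating. Of 9 tested, 6 were higher and 3 lower, with 5 of 6 Kcng, Kcnf and Kcnv genes higher, against 1 of 3 Kcns genes. These counts are limited, because Kcnf1, Kcng1 and Kcns2, all called higher, reached the 1 TPM needed for testing in IP alone. Relative to the median gene of unscaled TPM, Kcng1 (-0.04) and Kcns2 (-0.83) did not keep their sign. Kcng2 (Kv6.2, ENSMUSG00000059852.7, chromosome 18) had the largest rise of all channel genes tested. It ran from 1.91 to 2.90 in IN (median 2.31) and from 6.26 to 11.5 in IP (median 9.33). The lowest IP library was above the highest IN library, and the rise was 1.60 ± 0.10 (limma adjusted p = 2.2e-07, 8 of 8 pools). Of its exonic bases 9.10% lie under a gene on the other strand.

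Kcnv1 (Kv8.1, ENSMUSG00000022342.6, chr15:45106284-45114920, minus strand) ran from 7.28 to 8.07 in IN (median 7.69) and from 13.3 to 18.5 in IP (median 16.6). It rose by 1.01 ± 0.05 (limma adjusted p = 5.2e-08, 8 of 8 pools), again without overlap. Its filter line is coding bases 1165 to 1209 of Kcnv1-201. Kcng3 rose by 0.75 ± 0.06 from a mean of 8.72 to 15.4. The scarcer Kcnf1 (0.876 to 2.12) rose by 0.73 ± 0.05 and Kcng1 (0.794 to 1.69) by 0.58 ± 0.05, although Kcng1 was at -0.04 relative to the median gene of the unscaled TPM. Among the Kcns genes, Kcns1 fell by 0.43 ± 0.07 from 11.1 to 7.95, Kcns3 by 0.28 ± 0.08 from 16.4 to 13.4, and Kcns2 (0.389 to 0.610) rose by 0.21 ± 0.04. Kcng4 fell by 0.49 ± 0.05 from 2.48 to 1.48, but with quantile normalization its change was -0.02 and did not pass. With unscaled TPM, Kcns1, Kcns3 and Kcng4 turned positive.

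The Kv3 (Shaw) genes encode high-threshold pores that repolarize fast-spiking cells. Kcnc1 (Kv3.1, ENSMUSG00000058975.7, chr7:46396497-46438704, plus strand) ran from 11.9 to 16.5 in IN (median 14.9) and from 4.87 to 7.49 in IP (median 6.19). It fell by 1.15 ± 0.08 (limma adjusted p = 2.9e-07, 8 of 8 pools), with no overlap, and stood at 0.91 with unscaled TPM.

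Other Kv3 genes went up. Kcnc4 (Kv3.4), an A-type member found in nociceptors, rose by 0.34 ± 0.06 from 14.4 to 18.7, and Kcnc2 by 0.26 ± 0.06 from 8.42 to 10.3 (limma adjusted p = 0.00023 and 0.0027, 8 of 8 pools each). Kcnc4 and Kcnc1 were nearly equal in IN, at a ratio of 0.978 ± 0.081, and stood at 3.07 ± 0.456 in IP (SD, n = 8 each). Their filter windows, coding bases 1180 to 1224 of Kcnc1-203 and 1300 to 1344 of Kcnc4-201, were the most alike of the pairs shown.

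The Kv7 (KCNQ) genes encode the M-current pores. Kcnq3 (Kv7.3, ENSMUSG00000056258.9, chr15:65986387-66286642, minus strand) ran from 8.15 to 11.0 in IN (median 9.91) and from 2.33 to 3.96 in IP (median 2.84). Its groups did not overlap, and it fell by 1.45 ± 0.08 (limma adjusted p = 8.7e-08, 8 of 8 pools), but was 0.46 with unscaled TPM.

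Kcnq5 went the other way and rose by 0.32 ± 0.06 from 5.09 to 6.61, without overlap (limma adjusted p = 0.00036). Relative to the median gene of the unscaled TPM, Kcnq3 and Kcnq5 kept these signs.

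The Kcnh genes encode the EAG, ERG and ELK pores. Of 6 tested, Kcnh1 and Kcnh6 were higher and Kcnh2, Kcnh5, Kcnh7 and Kcnh8 were lower. None of the 6 had overlapping libraries, which also held for 48.4% of all tested genes. Kcnh6 (ERG2, ENSMUSG00000001901.15, chr11:106008124-106034549, plus strand) ran from 8.26 to 11.2 in IN (median 9.06) and from 18.9 to 22.4 in IP (median 20.9). It rose by 1.09 ± 0.05 (limma adjusted p = 5.7e-08, 8 of 8 pools). Kcnh2 (ERG1, chr5:24319589-24351604, minus strand), the best known ERG pore through its role in the heart, fell by 0.88 ± 0.06 from 19.8 ± 1.33 to 10.3 ± 1.3 (limma adjusted p = 3.9e-07).

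The 2 ERG genes exchanged places. Kcnh6 was at 0.473 ± 0.0628 of the level of Kcnh2 in IN and at 2.04 ± 0.262 in IP (SD, n = 8 each). The lowest IP ratio was 1.71 and the highest IN ratio 0.605. Their filter windows are coding bases 1408 to 1452 of Kcnh6-201 and 1858 to 1902 of Kcnh2-201, and both have the phenylalanine codon of this family.

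Kcnh7 (ERG3, ENSMUSG00000059742.10, chr2:62693414-63184287, minus strand) ran from 25.7 to 31.0 in IN (median 27.9) and from 10.5 to 17.4 in IP (median 14.6). It fell by 0.95 ± 0.08 (limma adjusted p = 1.5e-06, 8 of 8 pools). Kcnh5 (EAG2, ENSMUSG00000034402.3, chr12:74897220-75177332, minus strand) ran from 4.82 to 5.75 in IN (median 5.41) and from 1.24 to 2.29 in IP (median 1.65), a fall of 1.24 ± 0.07 (limma adjusted p = 1e-07). Its close relative Kcnh1 (EAG1) rose by 0.28 ± 0.04 from 8.70 to 10.8. Kcnh8 fell by 0.76 ± 0.06 from 1.60 to 0.540. The 4 lower genes turned positive with unscaled TPM but stayed below its median gene.

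Calcium-activated BK channels couple calcium entry to repolarization, and their pore gene Kcnma1 (chr14:23289431-24014491, minus strand) was at 13.2 ± 1.26 in IN and 12.5 ± 1.27 in IP, a change of -0.07 ± 0.05 that did not pass (limma adjusted p = 0.18) but was called lower with upper quartile scaling (-0.12). Its accessory gene Kcnmb1 (ENSMUSG00000020155.2, chr11:33963013-33973641, plus strand), best known from smooth muscle, had the third largest rise of the channel genes. It ran from 2.41 to 3.58 in IN (median 3.26) and from 7.40 to 11.8 in IP (median 10.5), without overlap. The rise was 1.39 ± 0.06 (limma adjusted p = 4.4e-08, 8 of 8 pools). The ratio of Kcnmb1 to Kcnma1 went from 0.241 ± 0.0299 to 0.802 ± 0.0823 (SD, n = 8 each). Endothelial and mural cell markers, which include the smooth muscle gene Acta2, were all lower in IP, with sums of 83.2 to 94.0 in IN and 32.3 to 46.2 in IP. Their log2 changes ran from -0.45 (Pdgfrb) to -2.27 (Cdh5), and the cell source of the Kcnmb1 rise was not tested. Kcnmb1 lies inside the span of Kcnip1, on the other strand.

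Kcnmb4, the neuronal beta subunit, rose by 0.34 ± 0.08 from 9.69 to 12.6 (limma adjusted p = 0.0028), although 31.5% of its exonic bases lie under genes on the other strand. Kcnmb2 was at 1.09 in IN and 1.15 in IP and did not pass, although quantile normalization called it higher (0.40). Kcnu1 (ENSMUSG00000031576.16, chr8:25849623-25937939, plus strand), the pore gene of the related sperm channel Slo3, ran from 0.883 to 2.91 in IN (median 2.19) and from 3.09 to 5.52 in IP (median 4.39). It rose by 0.82 ± 0.14 (limma adjusted p = 0.00025, 8 of 8 pools). The lowest IN value came from male pool 4, whose change was the largest, and without it the rise was 0.69.

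Sodium-activated channels carry a slow outward current after bursts of firing. Kcnt1 (Slack, ENSMUSG00000058740.14, chr2:25863734-25918273, plus strand) ran from 22.3 to 31.3 in IN (median 24.5) and from 38.9 to 62.1 in IP (median 48.6). All IP libraries were above all IN libraries, with a rise of 0.92 ± 0.06 (limma adjusted p = 3.6e-07, 8 of 8 pools). Kcnt2 (Slick) rose by 0.38 ± 0.06 from 3.45 to 4.83 (limma adjusted p = 0.00016). The filter line of Kcnt1 is coding bases 865 to 909 of Kcnt1-201.

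The Kcnn genes encode small and intermediate conductance calcium-activated pores, which produce afterhyperpolarizations. Kcnn1 (SK1, ENSMUSG00000002908.17, chr8:70842049-70863258, minus strand) ran from 8.88 to 11.9 in IN (median 10.1) and from 22.7 to 25.6 in IP (median 23.9). It rose by 1.15 ± 0.05 (limma adjusted p = 4.7e-08, 8 of 8 pools), with no overlap. Kcnn2 (SK2) rose by 0.26 ± 0.04 from 4.19 to 5.22. Kcnn3 (SK3) was too low to be tested, at 0.877 in IN and 0.358 in IP.

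Kcnn4 (IK, ENSMUSG00000054342.8, chr7:24370263-24386690, plus strand), known from blood and immune cells, went down. It ran from 3.10 to 5.38 in IN (median 3.63) and from 0.723 to 1.76 in IP (median 0.850). The fall was 1.32 ± 0.06 (limma adjusted p = 5.4e-08, 8 of 8 pools), with a value of 0.16 when the TPM are unscaled. Macrophage markers summed to 57.5 to 99.8 in IN and 4.68 to 20.4 in IP, and their part in the fall was not tested. The windows shown for Kcnn1 and Kcnn4 are coding bases 1093 to 1137 of Kcnn1-204 and 724 to 768 of Kcnn4-201.

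The Kcnj genes encode inward rectifiers, which hold the resting potential and take up potassium. Only 8 of 15 passed the filter, and of these Kcnj6, Kcnj11 and Kcnj12 were higher, Kcnj2, Kcnj4, Kcnj10 and Kcnj13 lower and Kcnj3 without a call. Kcnj10 (Kir4.1, ENSMUSG00000044708.5, chr1:172341210-172374085, plus strand), the potassium uptake channel of satellite glia, had the largest fall of the channel genes tested. It ran from 10.4 to 14.2 in IN (median 13.2) and from 0.542 to 2.51 in IP (median 1.14). The highest IP library, female pool 2, was the one with the most non-neuronal marker RNA, and the next highest was 1.39. The fall was 2.66 ± 0.14 (limma adjusted p = 6.9e-08, 8 of 8 pools) and 2.80 without female pool 2, and it remained a fall, at -0.95, with unscaled TPM. Satellite glia markers fell by a median of 3.05 on the log2 scale beside it, and their part was not tested.

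Kcnj13 (Kir7.1, ENSMUSG00000079436.3, chr1:87386363-87394729, minus strand) ran from 1.25 to 3.70 in IN (median 2.65) and from 0.0764 to 0.677 in IP (median 0.212). It fell by 1.49 ± 0.09 (limma adjusted p = 2.3e-07, 8 of 8 pools), and by 0.52 with unscaled TPM. However, 49.1% of its exonic bases lie under Gigyf2 on the other strand, so that reads of the 2 genes may not have been told apart. Kcnj2 (Kir2.1, ENSMUSG00000041695.2, chr11:111066164-111076821, plus strand) ran from 2.30 to 3.97 in IN (median 3.46) and from 0.562 to 1.3 in IP (median 0.600), a fall of 1.31 ± 0.08 (limma adjusted p = 1.6e-07). With unscaled TPM it was level, at 0.04.

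Other inward rectifiers differed in direction. Kcnj12 (Kir2.2) rose by 0.44 ± 0.05 from 15.3 to 21.2 and Kcnj11 (Kir6.2), the pore of the ATP-sensitive channel, by 0.53 ± 0.06 from 2.46 to 4.00 (limma adjusted p = 1.7e-05 and 2.5e-05). Abcc8, which encodes the sulphonylurea receptor that pairs with Kir6.2, rose by 0.45 ± 0.10 (limma adjusted p = 0.0015). Kcnj4 fell by 0.51 ± 0.06 from 2.36 to 1.37, a call lost with quantile normalization (-0.04). Kcnj6 passed barely, at 0.13 ± 0.05 (limma adjusted p = 0.035, 7 of 8 pools), and lost its call when any of 5 pools was left out (0.10 to 0.13). Kcnj3, its partner in G protein-gated channels, was at 3.14 and 3.11 and did not pass, but was called higher with quantile normalization (0.41), and 31.1% of its exonic bases lie under a gene on the other strand.

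Of the 4 Kcne genes, whose products are single-span subunits of several Kv pores, only Kcne4 was tested, and it fell by 0.37 ± 0.05 from 0.926 to 0.488 (limma adjusted p = 7.5e-05), or rose to 0.55 with unscaled TPM. Kcne1 was listed at 0 in all 16 libraries, as was Kcnj1.

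The filter weighed on the fractions unequally. A deposited mean of 1 TPM corresponded to 2.19 scaled TPM in IN but to 0.445 in IP, so a gene of IN alone had to be more abundant to enter. Genes that entered through IP alone included Kcna5, Kcnf1, Kcng1, Kcnj6 and Kcns2, called higher, and Kcnab3, Kcne4 and Kcnh8, called lower. Of the 19 genes left out, 12 had the lower mean in IP and 5 the higher. In 5 the IN and IP libraries did not overlap, all lower in IP (Kcnd2, Kcnj8, Kcnj9, Kcnj16 and Kcnq1). The filter itself favours that direction, because a gene left out could reach a higher scaled mean in IN than in IP. No share over all genes left out is given here. Without the filter 76 channel genes could be fitted, and 32 were higher and 30 lower, which is 42.1% and 39.5% of them, against 19.2% and 39.3% of all genes in that fit. In that fit Kcnj16 (Kir5.1), which pairs with Kir4.1 in glia, fell by 1.01 ± 0.07 and Kcnd2 by 0.80 ± 0.06 (limma adjusted p = 2.8e-06 and 5.6e-06). Kcnj9 and Kcnj10, neighbours on chromosome 1, were both lower there, as were Kcnj16 and Kcnj2, neighbours on chromosome 11.

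As shares of all pore subunit RNA in a library, which need no scaling between libraries, the classes also shifted. The Kv1 share went from 31.4% ± 1.07 in IN to 18.6% ± 1.22 in IP, lower in 8 of 8 pools (SD, n = 8; shares are given without tests). Kv4 gained the most, as given above, followed by the sodium-activated class, from 4.37% ± 0.519 to 8.72% ± 1.02, and the silent subunits, from 7.64% ± 0.332 to 11.0% ± 0.682. With accessory genes in the base, the silent share was 4.31% ± 0.146 and 4.48% ± 0.228, higher in only 4 of 8 pools. SK and IK pores went from 2.90% ± 0.177 to 4.92% ± 0.218. Kv7 fell from 6.70% ± 0.656 to 4.89% ± 0.252, inward rectifiers from 6.92% ± 0.445 to 5.42% ± 0.313 and the Kcnh class from 11.0% ± 0.285 to 9.45% ± 0.469, each in 8 of 8 pools. Kv3 went from 7.34% ± 0.609 to 6.67% ± 0.809, a shift within its spread. Over all 78 genes, Kv1 beta subunits held 29.1% ± 1.3 in IN and 38.9% ± 2.59 in IP, and KChIPs 13.2% ± 0.384 and 18.8% ± 1.62, whereas Kv1 pores fell from 17.7% ± 0.876 to 7.58% ± 0.602.

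**Figure D4:**
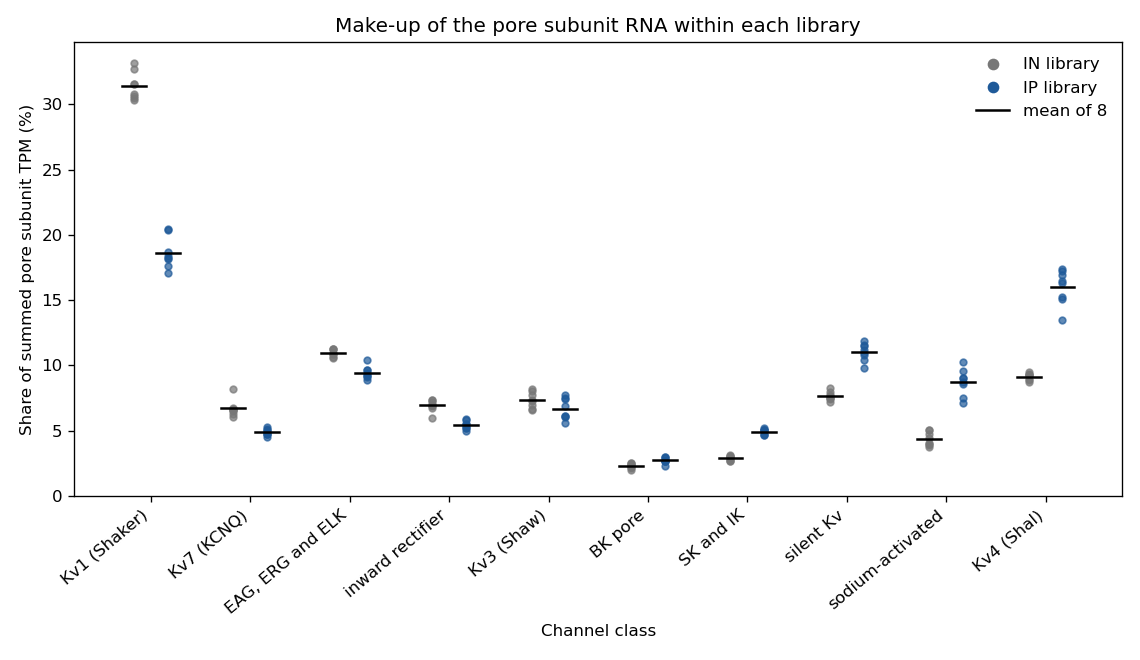
Share of the summed TPM of the 63 pore genes held by the channel classes plotted, one point per library, IN in grey and IP in blue, with bars at the mean of 8. Kv1 stands at 31.4% in IN and 18.6% in IP without overlap, and Kv4, sodium-activated, silent and SK and IK pores stand higher in IP; the class called BK pore holds Kcnma1 and Kcnu1.

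Proteins that partner these channels were described from a list of 31 genes, of which 26 were tested. Of these, 16 were higher and 5 lower, with a median log2 change of 0.24. For this list and the two-pore genes below, the background over all tested genes was 40.5% higher and 38.9% lower, with a median of 0.02. The partner list was chosen with earlier results of these data known, and no test compared it with that background. The largest rises were those of Dpp6 (1.12 ± 0.04) and of Nedd4l, a ubiquitin ligase of Kv7 channels, from 35.6 ± 5.52 to 70.3 ± 19 (0.94 ± 0.10, limma adjusted p = 7.2e-06). The largest falls were those of Sgk1, a kinase that raises channel levels at the membrane, from 16.5 ± 4.71 to 2.95 ± 2.24 (-2.24 ± 0.14), and of the scaffold gene Dlg3 (-1.66 ± 0.08), both in 8 of 8 pools (limma adjusted p = 1.7e-07 and 6.4e-08). Among the two-pore genes, 9 of 14 were tested, 5 were higher and 4 lower, led by Kcnk12 (2.04 ± 0.14) and Kcnk13 (1.3 ± 0.06) and, at the other end, Kcnk1 (-1.69 ± 0.08) and Kcnk5 (-1.61 ± 0.07). The limma adjusted p of these 4 were 4.6e-07, 4.7e-08, 4.7e-08 and 4.6e-08. Their median was 0.16, against 0.11 for the 48 pore genes tested, of which 24 were higher and 20 lower. No test compared the lists.

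Whether levels differ between the sexes is the question in the study's title. In neither fraction did any of the 59 genes pass for female against male pools (limma, Benjamini-Hochberg adjusted p below 0.05). In IN 0 of 59 passed and 0 had an unadjusted p below 0.05, against 0.0808% of all genes called and 4.81% with such a p. In IP 0 passed and 1 had an unadjusted p below 0.05, against 0.0497% and 2.25% of all genes. For the difference of the IP against IN change between the sexes 0 passed and 1 had an unadjusted p below 0.05, against 0.0186% and 2.78%. No channel gene had female and male libraries apart from each other without overlap in either fraction, which 2.83% of all tested genes had in IN and 1.67% in IP. The 95% interval around a gene's female minus male difference had a median half-width of 0.19 on the log2 scale in IN (0.12 to 0.43). In IP it was 0.27 (0.14 to 0.84), and for the interaction 0.28. These unadjusted intervals set no limit of detection for adjusted calls. Kcnj13 in IN, at 0.36, and Kcnc2 in IP, at 0.22, did not pass. With 4 pools a sex, differences of this size can be missed.

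The smallest p in IP was that of Kcnc2, at 12.1, 11.6, 11.6 and 9.35 scaled TPM in female pools 1 to 4 and 9.46, 8.89, 9.51 and 9.87 in male pools 1 to 4. Female pool 4 fell among the males and the other 3 lay above them, and the log2 difference of 0.22 ± 0.09 did not pass (limma adjusted p = 1.0). In IN, Kcnc2 lay between 8.14 and 9.01 in females and between 8.02 and 8.49 in males. Also among the 5 smallest p in IP were those of Kcna4 (-0.10), Kcnip3 (-0.10) and Kcnj6 (0.11), none past the threshold.

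Among the 5 smallest p in IN were those of Kcnj2 (0.28 ± 0.12), Kcnj13 (0.36 ± 0.17), Kcna3 (-0.16) and Kcnh2 (-0.12), all with a limma adjusted p of 0.96. Kcnj2 was at 3.30, 3.82, 3.63 and 3.81 in female pools and at 2.64, 2.30, 3.97 and 2.60 in male pools, so 1 male pool lay above all females. Among the 5 smallest p for the interaction were those of Kcnt1 (-0.21), Kcnc2 (0.17) and Kcnmb1 (-0.16), none past the threshold. Kcnd1, the 1 X-linked channel gene, differed by -0.02 in IN (95% interval -0.14 to 0.09) and by -0.08 in IP (-0.31 to 0.16).

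**Figure D5:**
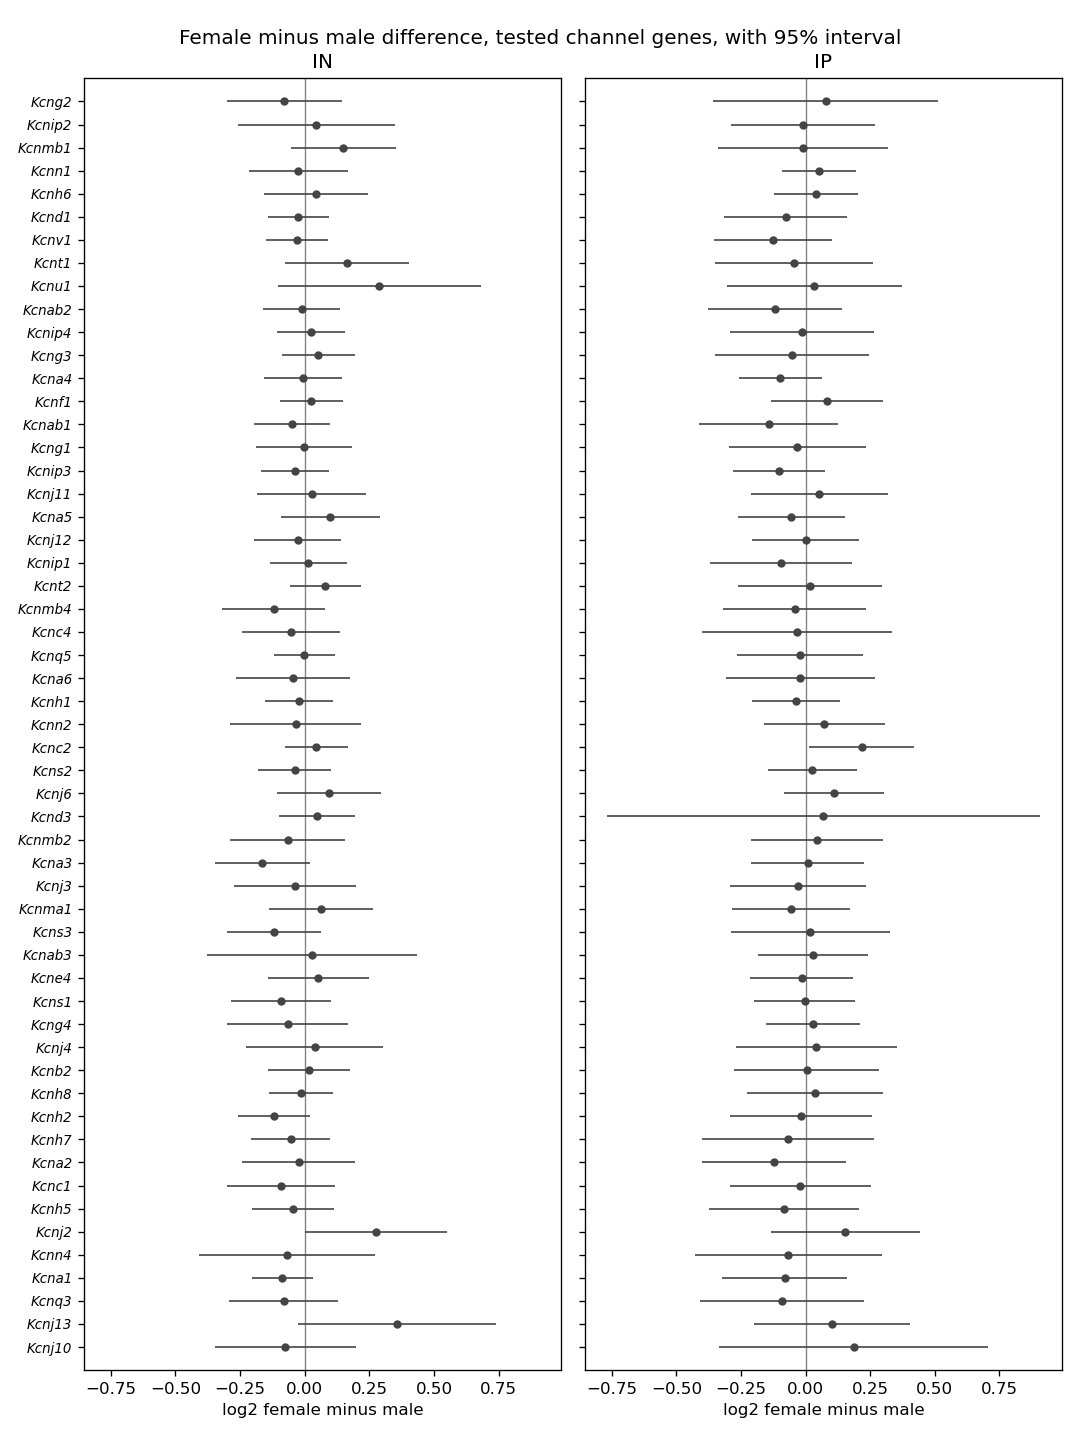
Female minus male log2 difference of 55 of the 59 tested channel genes in IN (left) and IP (right), 4 pools a sex, with its 95% interval from the limma fit, genes in the order of their IP against IN change. The intervals include 0 except that of Kcnc2 in IP (0.01 to 0.42), and the widest in IP is that of Kcnd3.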

How the data were processed

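RNA was sequenced from 16 libraries of mouse dorsal root ganglia. The submitters' processing notes name STAR 2.2.1, StringTie 1.3.5, FastQC and GRCm38.p5, and the labels name ribosomal RNA depletion for all libraries. No source used here gives the strand setting or the annotation release. The authors deposited 1 value per gene, read here as TPM because each file sums to 1000000. TPM do not keep depth, so count tests and counting intervals were not possible.

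The members, classes and lists were chosen with earlier results of these data known. Genes with a mean deposited TPM of at least 1 in IN or IP were tested (16099). Values were scaled by median-of-ratios factors (0.375 to 0.532 in IN, 1.65 to 2.69 in IP) and tested as log2(scaled TPM + 1) with limma 3.58.1 in R 4.3.3 (lmFit, eBayes with trend), adjusted over all genes by Benjamini-Hochberg, two-sided, at 0.05. Fold changes of low genes are understated by the pseudocount of 1. The series' design text states that the IN and IP libraries are paired, so the pool was a block in IP against IN and in the interaction. The correlations of their deviations were 0.00665 to 0.414, with 6 of 8 highest for their own number. Female and male pools were compared within a fraction without a block. Class shares and ratios carry no test. P-values of IP against IN and of the interaction rest on how the IP minus IN difference varied over pools of 3 mice. Those of female against male rest on the spread of levels between pools.

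Every channel gene could be named, but some genes and filter sequences are not reported here. Full ranges were given to the 10 largest rises and falls with 1 sign in all 8 pools. The 5 most abundant genes of each fraction were given them too. In the sex comparisons, single pools were given for Kcnc2 in IP and Kcnj2 in IN, and other genes named there have no pool values there. Simulated data with 200 changed genes were used to test the fits. Alternatives were other scalings, pseudocounts of 0.1 and 0.5, other filters, each pool left out, and the block added or removed. The filter on scaled TPM, the shares over tested genes only and the pore shares without each pool were chosen after seeing the data. Filter codons came from GENCODE M21 coding sequences, and coordinates are those of GRCm38.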

Additional observations from a re-analysis of the deposited data

Results flagged for a closer look

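In 10 of 236 groups of 4 libraries, 1 library stood apart from the other 3 by Dixon's test at 95%, and chance gives about 1 in 20. Values are scaled TPM. In the female IP libraries, Kcna1 was 44.8 in pool 2 against 33.9 to 34.7 in the others, Kcnip3 was 85.6 in pool 1 against 71.8 to 74.1, and Kcnn2 was 6.00 in pool 3 against 5.11 to 5.20. In the female IN libraries, Kcna3 was 0.468 in pool 1 against 0.603 to 0.610, Kcnh6 was 11.2 in pool 2 against 8.68 to 9.08, Kcna6 was 16.6 in pool 3 against 15.4 to 15.5, and Kcns3 was 13.4 in pool 3 against 16.5 to 16.6. In the male IN libraries, Kcnn2 was 3.15 in pool 2 against 4.59 to 4.70, and Kcnt1 was 28.1 in pool 4 against 22.3 to 23.1. In the male IP libraries, Kcnj3 was 4.05 in pool 3 against 2.80 to 2.95. Female IN pool 3 held 2 of the 10 values and no other library more than 1.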

How the results depend on the processing

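Depth is unknown, directions are relative to the median gene, and genes near 1 TPM are the least certain. With unscaled TPM the channel genes counted 55 higher and 2 lower (32 and 22 as reported), and a minimum mean of 5 TPM left 13 lower. Leaving out 1 pool gave 31 to 33 higher and 21 to 22 lower. Outside unscaled TPM, 31 of 32 higher genes (not Kcnj6) and 20 of 22 lower genes (not Kcng4 and Kcnj4) kept direction and call. Among the genes reported, unscaled TPM, with a shift of 1.84 of all genes, reversed Kcna1 (0.88), Kcna2 (1.25), Kcnab3 (0.52), Kcnb2 (1.68), Kcnc1 (0.91), Kcne4 (0.55), Kcng4 (1.01), Kcnh2 (1.26), Kcnh5 (0.46), Kcnh7 (1.22), Kcnh8 (0.32), Kcnj2 (0.036), Kcnj3 (1.70), Kcnj4 (0.95), Kcnma1 (2.04), Kcnn4 (0.16), Kcnq3 (0.46), Kcns1 (1.63) and Kcns3 (1.86). Of these genes, Kcnma1 (0.20) and Kcns3 (0.018) were still reversed relative to the median gene. Unscaled TPM also reversed the female minus male value of Kcnh2 in IN (0.0088) and the interaction of Kcnc2 (-0.040). Quantile normalization, with a shift of 0.15, gave 35 higher and 20 lower and reversed Kcnd3 (-0.048) and Kcnj3 (0.41), neither called as reported. It called Kcnj3, Kcnmb2 (0.40) and Kcna3 (0.25) higher, upper quartile scaling called Kcnma1 lower (-0.12), and unscaled TPM called all 5 genes without a call higher. The cause was not tested. Leaving out 1 pool ran over -0.021 to 0.066 for Kcna3, -0.072 to 0.034 for Kcnj3 and -0.027 to 0.25 for Kcnd3, none of them called. Class shares of all channel genes kept their direction with tested genes only and without any 1 pool, and those of pore genes, a check chosen after seeing the data, kept theirs without any 1 pool. Counts for the sexes and the interaction stayed at 0 in all 18 other settings. Removing the replicate block for IP against IN left 32 and 22, and adding it for the sexes left 0 and 0. Female and male pools share only a number: their correlations ran from -0.299 to 0.101, and 0 of 8 were highest for their own number.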
